A study of Homo sapiens with 4 samples.

Results

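SOX9, HMGA2 and NES were followed across 4 arrays of cultured human prostate cancer cells. The genes were chosen by name, with earlier results of these arrays known, and each had 1 probe, so they are 3 of 14006 genes with a named probe. The probes were 16837418 for SOX9 (NM_000346, Entrez 6662), 16753641 for HMGA2 (NM_003483, Entrez 8091) and 16694689 for NES (NM_006617, Entrez 10763). In the RefSeq gene table (GRCh38.p14) the genes are on chromosomes 17, 12 and 1. The study measured total RNA on whole-transcript arrays, 1 array per culture. PC3 cells come from a bone metastasis of prostate cancer and are labelled androgen-independent, and LNCaP cells come from a lymph node metastasis and carry the label androgen-dependent. PC3-L and PC3-H are PC3 cells that were isolated with IIH6C4, an antibody to the laminin-binding glycan, and are titled low and high for it. LNCaP-AI, per its labels, was derived from LNCaP by culture in steroid-depleted (charcoal-stripped) serum until androgen-independent and is low for the glycan, and its free text names medium conditioned by perineural cells; LNCaP carries the label high. PC3-L and LNCaP-AI carry the label of high motility and invasion, PC3-H and LNCaP that of low. All cultures were grown in RPMI1640 with penicillin and streptomycin, and no group had a second array, so every difference below is a description with no replicate check and no p-value.

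SOX9 is a transcription factor with an HMG box, a DNA-binding domain that bends DNA; it directs cartilage formation and is used by epithelial progenitors, including those of the prostate. HMGA2 is a small chromatin protein that binds AT-rich DNA with short AT hooks, is abundant in embryonic cells and is silenced in most adult tissues, where the let-7 microRNAs repress it. NES encodes nestin, an intermediate filament protein of neural progenitors that is also made by endothelium, Schwann cells and some tumour cells. The 3 proteins are not parts of 1 pathway, and they share the use as progenitor markers.

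The arrays had nearly equal medians over all probes, between 39.8 and 41.2. Markers of the lines were set beside the labels first. KLK3, the gene of prostate-specific antigen, stood at an intensity of 63.4 on PC3-L, 59.0 on PC3-H and 61.2 on the array labelled LNCaP-AI, against 1781 on LNCaP. The receptor kinase AXL was 900.0, 609 and 1015 on those first 3 arrays and 47.4 on LNCaP. In the difference of the array labelled LNCaP-AI from LNCaP, 5 of 5 LNCaP markers were past 2-fold lower and 8 of 9 PC3 markers past 2-fold higher. Among 11136 genes past a filter on low values, 5.13% were past 2-fold lower and 5.45% higher in this difference. The array titled LNCaP-AI therefore did not match the markers of its line. Over all probes on the log2 scale its correlation was r = 0.961 with PC3-L and 0.885 with LNCaP, as a description across probes, which are not replicates. The part of this mismatch in any difference from LNCaP was not tested. The free-text descriptions swap the glycan label of the PC3 arrays relative to the titles, and also give the LNCaP culture as androgen-independent; the titles, with which source names go together, were followed here.

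SOX9 was brightest on the array labelled LNCaP-AI. Its intensity was 443 on PC3-L and 261 on PC3-H, and it was 746 on the array labelled LNCaP-AI and 112 on LNCaP. The order was thus the array labelled LNCaP-AI, PC3-L, PC3-H and LNCaP, with a highest value 6.65 times the lowest. Both arrays labelled low for the glycan lay above both arrays labelled high. With 1 array per culture, no neighbours in this order can be said to differ beyond their spread, here or for the other genes.

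HMGA2 was brightest on PC3-L, with an intensity of 239.6, against 159 on PC3-H. It was 132 on the array labelled LNCaP-AI and 41.4 on LNCaP, where it stood at about the median of all probes (40.8). The order was PC3-L, PC3-H, the array labelled LNCaP-AI and LNCaP. The highest value was 5.79 times the lowest. The other 3 arrays stood above LNCaP, and among them the glycan label did not sort HMGA2, since PC3-H lay above the array labelled LNCaP-AI.

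NES was bright on 1 array. Its intensity was 42.4 on PC3-L, 107 on PC3-H, 45.7 on the array labelled LNCaP-AI and 45.0 on LNCaP. The 3 low values were close to each other and just above the median of all probes on their arrays. No detection call comes with the values, and no value of any probe lay below 17.6, so a fold against a dim array is understated. The highest NES value was 2.53 times the lowest, a smaller span than that of SOX9 or HMGA2. In bulk RNA, fewer cells with a transcript and less of it per cell cannot be told apart, and this holds for each level given here.

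**Figure D1:**
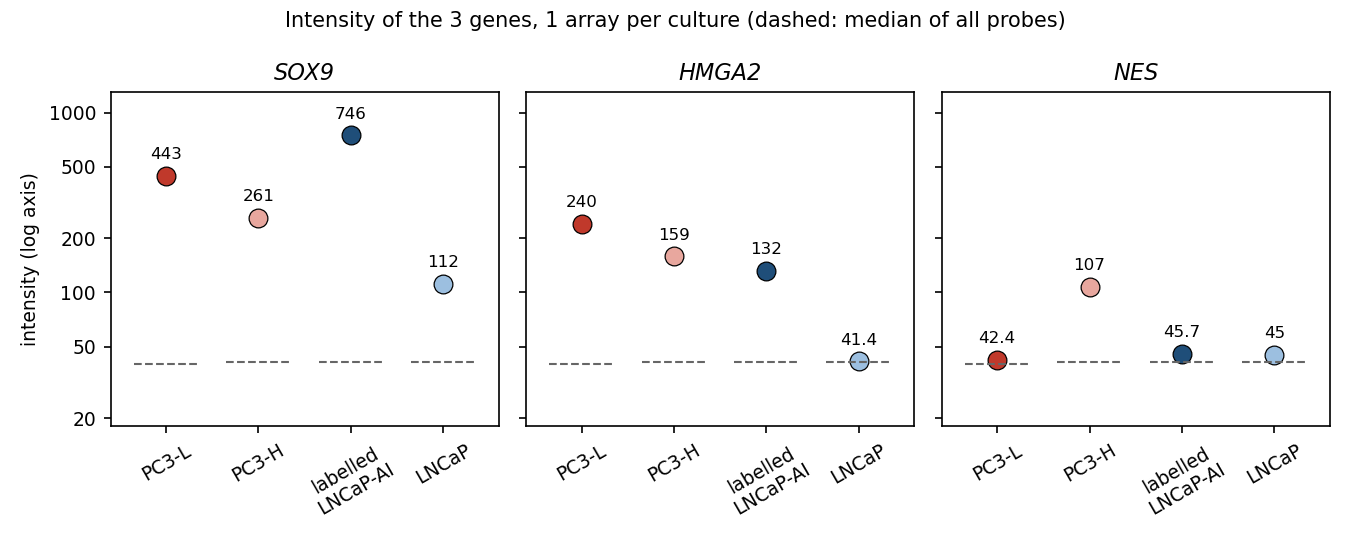
Intensity of SOX9, HMGA2 and NES (log axis) on each of the 4 arrays, 1 point per array with its value; dashed lines mark each array's median over all probes. SOX9 was highest on the array labelled LNCaP-AI (746) and lowest on LNCaP (112), HMGA2 stood at the median only on LNCaP (41.4), and NES stood clear of it only on PC3-H (107).

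In the PC3 pair, which asks what goes with loss of the laminin-binding glycan, NES was past 2-fold and SOX9 and HMGA2 were not. On the log2(intensity + 1) scale NES was lower on PC3-L than on PC3-H by a difference of −1.32 (2.50-fold lower). SOX9 had a log2 difference of 0.76 (1.70-fold) and HMGA2 one of 0.59 (1.51-fold). Among 11124 genes past a filter on low values (the higher of the 2 values at or above the 40th percentile of its array), 12.4% were past 2-fold in either direction in this pair, 8.59% higher and 3.77% lower. A difference at least as large as that of HMGA2 was seen at 29.1% of these genes, as large as that of SOX9 at 20.4%, and as large as that of NES at 6.09%. All 3 genes passed the filter in each comparison of the text. Under the glycan labels of the free-text descriptions every sign of this pair turns, that of NES to 1.32.

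In the LNCaP pair, which asks what goes with androgen independence and loss of the glycan, SOX9 and HMGA2 were past 2-fold and NES was not. The SOX9 log2 difference of the array labelled LNCaP-AI minus LNCaP was 2.72 (6.60-fold), and that of HMGA2 was 1.65 (3.15-fold). NES had a log2 difference of 0.02. In this pair 10.6% of 11136 genes were past 2-fold, 5.45% higher and 5.13% lower. Differences at least as large as those of SOX9, HMGA2 and NES were seen at 1.23%, 3.75% and 94.9% of them. With PC3-L in place of the array labelled LNCaP-AI, a comparison added after the values were seen, the log2 difference from LNCaP was 1.97 for SOX9 and 2.51 for HMGA2.

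**Figure D2:**
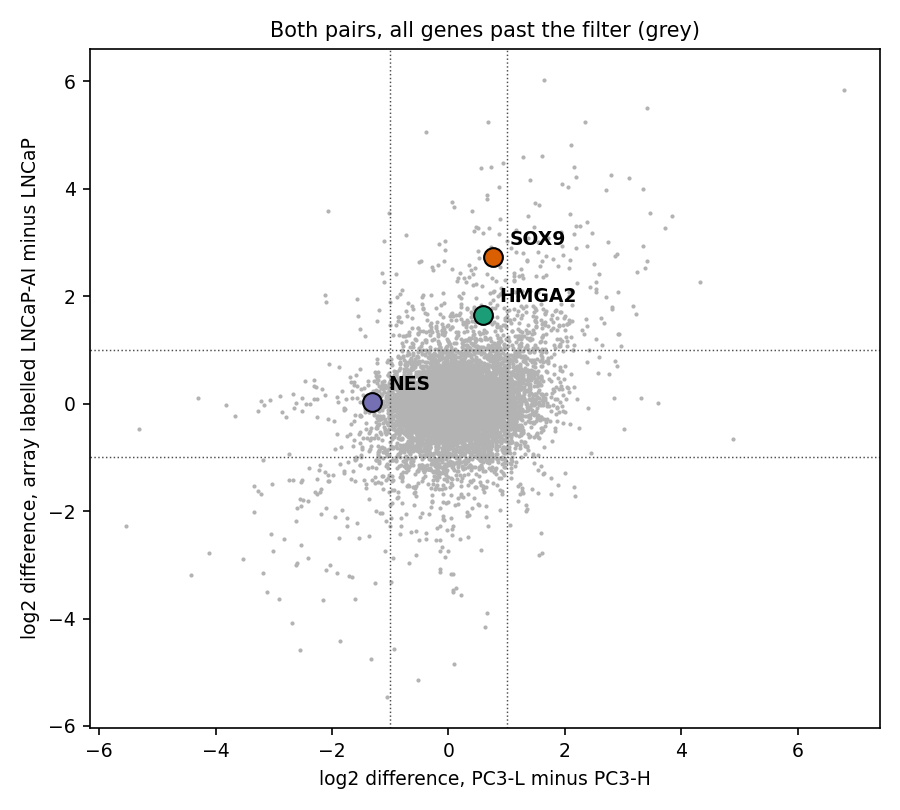
Log2 difference of PC3-L minus PC3-H (horizontal) against that of the array labelled LNCaP-AI minus LNCaP (vertical) for all genes past the filter in both pairs (grey), with SOX9, HMGA2 and NES in colour; dotted lines mark 2-fold. SOX9 (0.76 and 2.72) and HMGA2 (0.59 and 1.65) were past 2-fold in the LNCaP pair, NES (−1.32 and 0.02) in the PC3 pair.

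The 2 low-glycan arrays and the 2 high-glycan arrays were also set against each other. These comparisons share their arrays with the pairs above. Between the array labelled LNCaP-AI and PC3-L, 0 of the 3 genes were past 2-fold, where 2.79% of 10943 genes were, 0.832% higher and 1.96% lower. SOX9 was 0.75 higher on the log2 scale, HMGA2 was 0.85 lower and NES had a difference of 0.11. SOX9 and HMGA2 thus ran opposite ways here. Between LNCaP and PC3-H all 3 were past 2-fold lower on LNCaP, with log2 differences of −1.21 for SOX9, −1.92 for HMGA2 and −1.23 for NES, where 9.95% of 11154 genes were past 2-fold, 5.46% higher and 4.49% lower.

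Besides SOX9, 18 SOX genes had a named probe (Y-linked SRY was left out), and 15 of them stayed below an intensity of 100 on every array. For scale, 83.6% of all probes on PC3-H lay below the NES value of 107, so such levels were common. Of 12 past the filter in each pair, 0 were past 2-fold in either direction, where 12.4% of all genes were for PC3-L and PC3-H and 10.6% for the LNCaP pair. Among 12 genes a count of 0 is near those shares. Their median log2 difference was −0.17 in the PC3 pair, and 0.02 for the LNCaP pair, against −0.02 and 0.0048 over all genes. The PC3 pair's largest difference was that of SOX13, at 68.0 on PC3-L and 119 on PC3-H. SOX4, a progenitor factor of another SOX subgroup, was bright on all arrays, at 248 on PC3-L, 269.8 on PC3-H, 331 on the array labelled LNCaP-AI and 499 on LNCaP. It was brightest on LNCaP, where SOX9 was dimmest. SOX5 and SOX6, partners of SOX9 in cartilage, lay between 25.6 and 29.1. SOX10, the Schwann cell relative of SOX9, lay between 54.2 and 60.8.

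FGF and hedgehog signals act upstream of SOX9 in developing cartilage and epithelia. Of 14 listed genes of these pathways past the filter, 4 were past 2-fold higher and 1 lower in the PC3 pair, while the LNCaP pair held 5 higher and 0 lower. Over all genes 8.59% were past 2-fold higher and 3.77% lower in the PC3 pair, and 5.45% and 5.13% in the LNCaP pair. The list was chosen with earlier results of these data known. The median log2 difference of the list was 0.20 for the PC3 pair and 0.27 for the LNCaP pair. The genes past 2-fold were mostly genes induced by FGF and ERK signalling (DUSP6, SPRY2, SPRY4, ETV4 and ETV5) rather than the receptors. DUSP6, the phosphatase of ERK, had an intensity of 559.9 on PC3-L and 106 on PC3-H, and 306 on the array labelled LNCaP-AI and 39.4 on LNCaP. SPRY2, an inhibitor of receptor kinase signals, was 185 on PC3-L and 72.0 on PC3-H, and 193 on the array labelled LNCaP-AI and 29.7 on LNCaP. The ETS factor ETV5 was 122 on PC3-L and 55.3 on PC3-H, and 103 on the array labelled LNCaP-AI and 29.7 on LNCaP. All 3 of these genes, like SOX9, were higher on both low-glycan arrays than on both high-glycan arrays. SPRY4 was 175 on PC3-L and 57.2 on PC3-H, and 62.1 on the array labelled LNCaP-AI and 32.9 on LNCaP. ETV4, a close relative of ETV5, ran another way: it was 144 on PC3-L and 313 on PC3-H, and 196 on the array labelled LNCaP-AI and 40.04 on LNCaP. GLI3, a transcription factor of the hedgehog pathway, was 139 on PC3-L and 75.0 on PC3-H, and 154 on the array labelled LNCaP-AI and 57.0 on LNCaP.

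Wnt genes, several of which are tied to SOX9 in prostate and gut, were split in direction. Of 17 past the filter in the PC3 pair 2 were past 2-fold higher and 3 lower, and of 16 in the LNCaP pair 3 were higher and 2 lower. All genes were split too, with 8.59% past 2-fold higher and 3.77% lower in the PC3 pair. In the LNCaP pair the shares were 5.45% and 5.13%. The list median was −0.03 and 0.13 on the log2 scale. The co-receptor LRP6 was 179 on PC3-L and 87.1 on PC3-H, and 174 on the array labelled LNCaP-AI and 159 on LNCaP. The nuclear factor LEF1 was 72.1 on PC3-L and 25.9 on PC3-H, and 55.9 on the array labelled LNCaP-AI and 36.3 on LNCaP. LRP5, the paralogue of LRP6, was 125 on PC3-L and 304 on PC3-H. The receptor FZD6 was 31.6 on PC3-L and 197 on PC3-H, and 35.6 on the array labelled LNCaP-AI and 286 on LNCaP. FZD6 was therefore low on both arrays on which SOX9 was brightest. FZD1 was 58.3 on PC3-L and 35.2 on PC3-H, and 211 on the array labelled LNCaP-AI and 65.9 on LNCaP, and FZD8 was 291 on the array labelled LNCaP-AI and 51.4 on LNCaP. RNF43, which removes Wnt receptors from the surface, was 34.4 on the array labelled LNCaP-AI and 72.3 on LNCaP. The Wnt antagonist DKK1 was 25.0 on PC3-L and 1054 on PC3-H.

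Genes listed for the cartilage programme of SOX9 were mostly dim, as were most probes. On PC3-H 83.6% of all probes lay below an intensity of 107. Of 9 with a named probe, 6 stayed below 100 on every array, among them the matrix proteoglycan ACAN (27.5 to 29.2) and the link protein HAPLN1 (23.1 to 27.1). Of 6 past the filter, 1 was past 2-fold higher in the PC3 pair, with 0 lower, where 12.4% of all genes were past 2-fold. The LNCaP pair held 2 higher and 0 lower, where 10.6% of all genes were past 2-fold. The gene of the PC3 pair was BMP2, a ligand upstream of SOX9 that induces it in cartilage. BMP2 was 648 on PC3-L and 44.3 on PC3-H, and 393 on the array labelled LNCaP-AI and 34.3 on LNCaP. Those of the LNCaP pair were BMP2 and CHST11, a chondroitin sulfotransferase. CHST11 was 225 on PC3-L and 115 on PC3-H (log2 difference 0.96), and 106 on the array labelled LNCaP-AI and 48.4 on LNCaP. Its order over the arrays was that of HMGA2. WWP2, the ubiquitin ligase gene, was 117 on PC3-L and 126 on PC3-H, and 159 on the array labelled LNCaP-AI and 193 on LNCaP.

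Of 19 Notch pathway genes past the filter in each pair, 2 were past 2-fold higher and 1 lower in the PC3 pair and 1 was higher and 0 lower in the LNCaP pair. Of all genes past the filter, 12.4% were past 2-fold between PC3-L and PC3-H, and the LNCaP pair had 10.6%. For a list of 19 genes, the Notch counts are near these shares. Notch signalling can induce both SOX9 and NES. The receptor NOTCH3 was 55.2 on PC3-L and 120.2 on PC3-H, and 48.8 on the array labelled LNCaP-AI and 87.6 on LNCaP. The ligand JAG1 was 253 on PC3-L and 415 on PC3-H, and 167 on the array labelled LNCaP-AI and 88.9 on LNCaP. Both were brightest on PC3-H, as was NES, but their order over the other arrays was not that of NES. JAG1 was dimmest on LNCaP and NOTCH3 on the array labelled LNCaP-AI, while NES was dimmest on PC3-L. JAG1 stayed within 2-fold in the PC3 pair. HEY2, a target of the pathway, was 87.5 on PC3-L and 37.6 on PC3-H, and 69.8 on the array labelled LNCaP-AI and 37.0 on LNCaP. The co-activators MAML3, at 134 on PC3-L and 57.8 on PC3-H, and MAML2, at 103 on the array labelled LNCaP-AI and 29.4 on LNCaP, completed the genes past 2-fold.

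The paralogue of HMGA2, HMGA1, was also lowest on LNCaP. HMGA1 had an intensity of 1533 on PC3-L and 1596 on PC3-H, and 2154 on the array labelled LNCaP-AI and 262 on LNCaP, a difference of 8.18-fold in the LNCaP pair. The PC3 arrays were nearly equal. HMGA1 has processed pseudogenes, and its probe may not separate the copies. Of 13 HMG box, HMGB and HMGN genes past the filter in each pair, HMGA1 included, 1 was past 2-fold in the PC3 pair (TOX2, at 96.7 on PC3-L and 46.5 on PC3-H) and 1 in the LNCaP pair (HMGA1 itself), both higher. Both counts are near the shares of all genes past 2-fold, 12.4% and 10.6%. The list median was −0.06 and 0.12 on the log2 scale. HMGB1 and HMGB2, abundant DNA-bending proteins, were 94.3 and 93.9 on PC3-L and 61.6 each on PC3-H.

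The let-7 microRNAs pair with HMGA2 mRNA through their seed, bases 2 to 8, and the LIN28 proteins block their maturation. Named probes were present for 10 precursor genes of the family, whose mature sequences from RefSeq (GRCh38.p14) all share 1 seed, GAGGUAG. The sequences show this shared seed in capitals, and let-7i is given first because its precursor was the only gene of this list past 2-fold in the PC3 and LNCaP pairs.
let-7i-5p: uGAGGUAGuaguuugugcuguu
let-7a-5p: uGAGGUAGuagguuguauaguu
let-7c-5p: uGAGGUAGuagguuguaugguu
let-7d-5p: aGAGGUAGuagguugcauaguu
let-7e-5p: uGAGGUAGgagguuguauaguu
let-7f-5p: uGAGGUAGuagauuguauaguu
let-7g-5p: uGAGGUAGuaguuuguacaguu
miR-98-5p: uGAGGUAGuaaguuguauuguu
The mature let-7i-5p lies at chr12:62603691-62603712 on the plus strand. That of MIRLET7C is at chr21:16539838-16539859 (plus), of MIRLET7D at chr9:94178841-94178862 (plus), of MIRLET7E at chr19:51692793-51692814 (plus), of MIRLET7F1 at chr9:94176353-94176374 (plus), of MIRLET7G at chr3:52268336-52268357 (minus) and of MIR98 at chrX:53556299-53556320 (minus). The same let-7a-5p comes from 3 precursors, MIRLET7A1 at chr9:94175962-94175983 (plus), MIRLET7A2 at chr11:122146568-122146589 (minus) and MIRLET7A3 at chr22:46112752-46112773 (plus).

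MIRLET7I had an intensity of 172 on PC3-L and 58.3 on PC3-H, and 178 on the array labelled LNCaP-AI and 41.6 on LNCaP. The difference was 2.92-fold for the PC3 pair and 4.21-fold for the LNCaP pair, so the precursor of a microRNA that carries the seed was higher in the same pairs in which HMGA2 was 1.51-fold and 3.15-fold higher. A level of a precursor probe is not a level of the mature microRNA, which was not measured separately. The other 9 precursors stayed within 2-fold in both pairs where they passed the filter. MIRLET7A3 was 62.1 on PC3-L and 76.9 on PC3-H, and 87.9 on the array labelled LNCaP-AI and 114 on LNCaP, an order opposite to that of HMGA2. MIRLET7C was 19.6 on PC3-L and 23.0 on PC3-H, and 22.1 on the array labelled LNCaP-AI and 38.9 on LNCaP. LIN28A (24.2 to 26.3) and LIN28B (22.2 to 25.3) were dim on all 4 arrays.

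Other genes that let-7 is known to target were read beside HMGA2. Besides HMGA2, 15 past the filter held 1 past 2-fold higher and 1 lower in the PC3 pair, and 3 higher and 1 lower in the LNCaP pair. Their median log2 difference was −0.14 for the PC3 pair but 0.48 for the LNCaP pair. Over all genes 12.4% were past 2-fold in the PC3 pair, a share near this list's count, and 10.6% in the LNCaP pair. IGF2BP2, an RNA-binding protein gene that HMGA2 activates in embryonic and muscle cells of mice, was 415 on PC3-L and 207 on PC3-H, and 289.6 on the array labelled LNCaP-AI and 34.6 on LNCaP. In the LNCaP pair it was 8.17-fold higher, and like HMGA2 it was lowest on LNCaP and highest on PC3-L. IGF2BP1 was 119 on PC3-L and 38.5 on PC3-H, and 129.9 on the array labelled LNCaP-AI and 46.2 on LNCaP. IGF2BP3 was 33.0 on PC3-L and 68.0 on PC3-H, and 49.0 on the array labelled LNCaP-AI and 37.2 on LNCaP, so the 3 paralogues did not share a pattern. The cell cycle kinase CDK6 was 207 on PC3-L and 126 on PC3-H, and 177 on the array labelled LNCaP-AI and 48.1 on LNCaP. MYC was brightest on LNCaP, where HMGA2 was dimmest, at 234 on PC3-L and 349.8 on PC3-H, and at 142 on the array labelled LNCaP-AI and 445 on LNCaP.

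**Figure D3:**
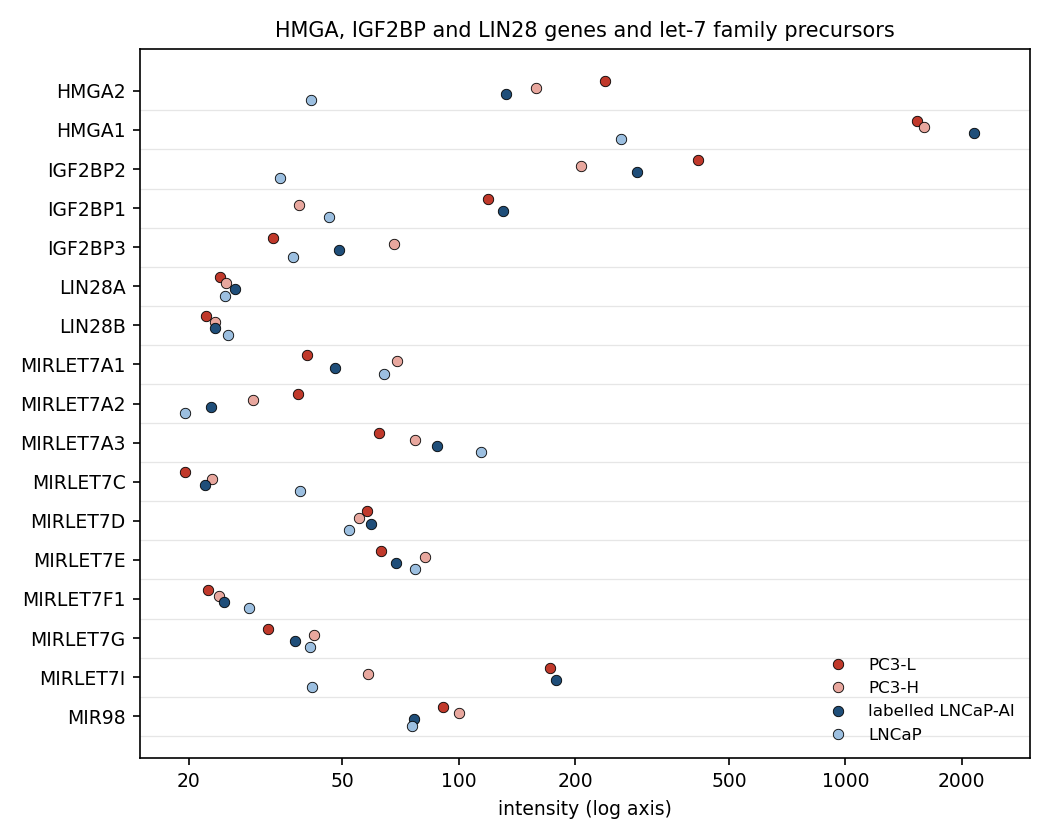
Intensity (log axis) of HMGA2, HMGA1, the IGF2BP and LIN28 genes and 10 let-7 family precursors, with 1 point per array. HMGA2, HMGA1 and IGF2BP2 were lowest on LNCaP (41.4, 262 and 34.6), and MIRLET7I was higher on PC3-L (172) than on PC3-H (58.3), and stood at 178 on the array labelled LNCaP-AI, with 41.6 on LNCaP.

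TGF-beta induces HMGA2 in epithelial cells, and HMGA2 in turn acts with SMAD proteins on the repressors of the epithelial state. Of 16 genes of the TGF-beta and BMP pathway past the filter 5 were past 2-fold higher and 1 lower in the PC3 pair, with a median of 0.52. Of 15 in the LNCaP pair 3 were higher and 0 lower, with a median of 0.22. Over all genes 8.59% were past 2-fold higher and 3.77% lower in the PC3 pair, with a median of −0.02. In the LNCaP pair 5.45% of all genes were higher and 5.13% lower, with a median of 0.0048. BMP6 was 262 on PC3-L and 68.3 on PC3-H, and 91.2 on the array labelled LNCaP-AI and 39.1 on LNCaP. The common mediator SMAD4 was 382 on PC3-L and 135 on PC3-H, and 225 on the array labelled LNCaP-AI and 212 on LNCaP. The inhibitor SMAD7 was 116 on PC3-L and 46.3 on PC3-H, and 99.6 on the array labelled LNCaP-AI and 55.5 on LNCaP. SMAD3, a direct mediator of TGF-beta, was 50.3 on PC3-L and 74.8 on PC3-H, and 68.0 on the array labelled LNCaP-AI and 29.5 on LNCaP. SMAD2 was 452 on PC3-L and 204 on PC3-H, and 177 on the array labelled LNCaP-AI and 263 on LNCaP. SMAD3 and SMAD2 thus each differed in direction between the pairs. TGF-beta ligands and their receptors are not analysed here. NOG, which binds BMP ligands, was 51.3 on PC3-L and 116 on PC3-H, and 55.5 on the array labelled LNCaP-AI and 48.8 on LNCaP, the pattern of NES.

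Of 12 EMT factors past the filter in each pair, 3 were past 2-fold higher and 1 lower in the PC3 pair, and the same counts held for the LNCaP pair. The shares of all genes were 8.59% higher and 3.77% lower in the PC3 pair, and 5.45% and 5.13% in the LNCaP pair. The higher factors were SNAI2, ZEB1 and TCF4 in both pairs, and the lower one was GRHL2, which maintains epithelia. SNAI2, a repressor that acts with SOX9 in mammary stem cells, was 634 on PC3-L and 93.5 on PC3-H, and 468 on the array labelled LNCaP-AI and 57.6 on LNCaP. ZEB1 was 225 on PC3-L and 38.2 on PC3-H, and 157 on the array labelled LNCaP-AI and 36.5 on LNCaP. GRHL2 was 29.3 on PC3-L and 129 on PC3-H, and 32.8 on the array labelled LNCaP-AI and 287 on LNCaP. SNAI1 and TWIST1, which HMGA2 is known to induce, were 50.8 and 60.4 on PC3-L against 71.6 and 44.0 on PC3-H, within 2-fold. In the LNCaP pair SNAI1 was 47.0 on the array labelled LNCaP-AI and 61.0 on LNCaP, and TWIST1 was 57.1 and 34.6 on the same arrays, also within 2-fold.

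Nestin cannot form filaments alone and assembles with vimentin. VIM and NES did not run together on these arrays. VIM was 896 on PC3-L and 104 on PC3-H, and 1216 on the array labelled LNCaP-AI and 65.1 on LNCaP, while NES was brightest on PC3-H. In the PC3 pair 8.59% of all genes were past 2-fold higher and 3.77% lower. Of 13 intermediate filament and linker genes past the filter in that pair, 1 was past 2-fold higher (VIM) and 3 were lower. The 3 were keratins of simple and stratified epithelia that, like NES, were bright on PC3-H alone. KRT19 was 48.8 on PC3-L and 463 on PC3-H, and 45.9 on the array labelled LNCaP-AI and 44.2 on LNCaP. KRT80 was 41.7 on PC3-L and 385 on PC3-H, and KRT7 was 32.7 on PC3-L and 141 on PC3-H. On the array labelled LNCaP-AI and on LNCaP, KRT80 was 44.0 and 44.9 and KRT7 was 31.2 and 28.3. In the LNCaP pair 3 of 12 were past 2-fold higher, VIM, the linker PLEC and the lamin LMNA, and 0 lower. Over all genes 5.45% were past 2-fold higher and 5.13% lower in that pair. The list median was −0.38 for the PC3 pair and 0.12 for the LNCaP pair, against −0.02 and 0.0048 over all genes.

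Besides NES, 15 neural progenitor genes passed the filter in each pair. Of these, 0 were past 2-fold for the PC3 pair, where 12.4% of all genes were, and 1, PAX6, was higher in the LNCaP pair, where 10.6% were past it in either direction. Both counts are near the share of all genes at this list size. The list's median log2 differences were −0.20 and 0.01. PAX6 was 58.8 on the array labelled LNCaP-AI and 28.8 on LNCaP. SOX2, a neural stem cell factor that drives NES in neural progenitors, lay between 26.5 and 28.0 on all 4 arrays. CDK5, the kinase that phosphorylates nestin, was 195.5 on PC3-L and 350.2 on PC3-H, and 307 on the array labelled LNCaP-AI and 181 on LNCaP.

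In the wider list of progenitor and stem cell genes, 10 others passed the filter in each pair. In the PC3 pair 0 were higher and 1, CD24, was lower, where 12.4% of all genes were past 2-fold. In the LNCaP pair 1, CD44, was higher and 2, MYC and CD24, were lower, where 10.6% of all genes were past 2-fold. The medians were −0.16 and −0.03. CD44, a surface marker of basal and progenitor cells, was 318 on PC3-L and 239 on PC3-H, and 297 on the array labelled LNCaP-AI and 23.9 on LNCaP. Like SOX9 and HMGA2 it was lowest on LNCaP. CD24, a marker of luminal cells, was 26.5 on PC3-L and 248 on PC3-H, and 26.0 on the array labelled LNCaP-AI and 54.8 on LNCaP. POU5F1, PROM1, LGR5, KRT5, KRT14 and KIT stayed below 40 on each array. MYC is described with the let-7 targets.

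The promoter table held 1 of the 3 genes, NES. For that reason only the 250 bases before the NES start are shown. Capitals mark the GC boxes, GGGCGG on either strand, that Sp1 family factors bind. They lie at chr1:156677408-156677657 on the minus strand of GRCh38.p14.
NES promoter: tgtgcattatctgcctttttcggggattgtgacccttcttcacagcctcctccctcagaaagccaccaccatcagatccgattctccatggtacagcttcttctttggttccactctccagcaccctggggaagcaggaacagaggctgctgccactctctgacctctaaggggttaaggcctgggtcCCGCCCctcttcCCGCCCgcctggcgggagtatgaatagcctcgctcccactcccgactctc
The window holds 2 GC boxes, whose first bases are 62 and 50 bases before the start. At least 1 lies in the same window of 42.6% of 35116 RefSeq promoters. No CCAAT box (CCAAT), TATA box (TATAAA), E box (CANNTG) or AP-1 site (TGANTCA) was matched on either strand, while 32.0%, 10.7%, 61.8% and 6.57% of promoters hold one. The 2 GC boxes do not overlap each other.

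The genes with the most similar profiles over the 4 arrays were found among 10788 genes by the Euclidean distance between log2 profiles, each centred on its own mean. Nearest to SOX9 were TIPARP, an ADP-ribosyltransferase (distance 0.20), LTBP1, which anchors latent TGF-beta in the matrix (0.25), EHD2, an ATPase of caveolae (0.25), the membrane gene CMTM7 (0.26) and the mitotic phosphatase CDC25B (0.27). TIPARP was 242 on PC3-L and 149.9 on PC3-H, and 355 on the array labelled LNCaP-AI and 57.9 on LNCaP. Nearest to HMGA2 were G0S2, an inhibitor of lipolysis (0.24), SMURF2, a ubiquitin ligase of SMAD signalling (0.26), CACHD1 (0.28), the kinase scaffold AKAP12 (0.32) and FERMT2, the integrin adaptor kindlin-2 (0.34). G0S2 was 709 on PC3-L and 398 on PC3-H, and 398 on the array labelled LNCaP-AI and 130.3 on LNCaP. Nearest to NES were DMKN (0.07), GALNT2, an enzyme that starts mucin-type glycans (0.09), HOXA10-AS (0.09), the pseudogene ALOX12P2 (0.09) and TMEM92 (0.10). GALNT2 was 244 on PC3-L and 565 on PC3-H, and 247 on the array labelled LNCaP-AI and 239.9 on LNCaP. Between the members, the distance was 1.38 for SOX9 and HMGA2, 1.96 for HMGA2 and NES and 2.44 for SOX9 and NES. The likeness rests on 4 arrays and says nothing of shared control.

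**Figure D4:**
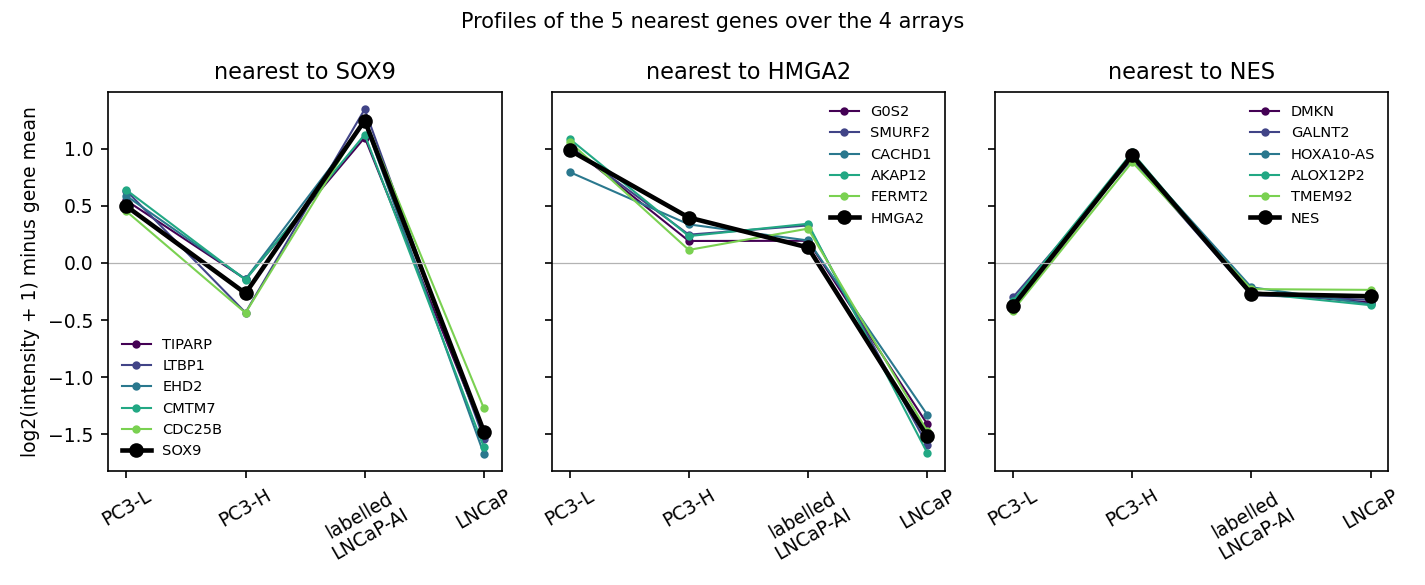
Log2(intensity + 1) minus each gene's mean over the 4 arrays, for SOX9, HMGA2 and NES (black) and the 5 genes nearest to each (colours). The SOX9 group peaked on the array labelled LNCaP-AI, the HMGA2 group on PC3-L, and the NES group on PC3-H.

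Genes next to the 3 in the RefSeq gene order were read for a shared pattern. Beside SOX9, the nearest named genes with a probe on either side were KCNJ2-AS1, MAP2K6 and MIR635, and LINC00673, LINC00511 and SSTR2. LINC00673 was 43.0 on PC3-L and 77.3 on PC3-H, and 55.8 on the array labelled LNCaP-AI and 51.7 on LNCaP. MAP2K6, a kinase of the p38 pathway, was past 2-fold lower in the PC3 pair, at 29.0 on PC3-L and 70.1 on PC3-H, and was 76.1 on the array labelled LNCaP-AI and 65.8 on LNCaP. In the LNCaP pair, where SOX9 was 6.60-fold higher, 0 of these 6 neighbours were past 2-fold. Over all genes 10.6% were past 2-fold in that pair, and a count of 0 among 6 genes is near that share.

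Beside HMGA2 lay RPSAP52, MSRB3 and LEMD3 on one side and TMBIM4, HELB and GRIP1 on the other. RPSAP52, a transcribed pseudogene that overlaps HMGA2 on the opposite strand, was 48.3 on PC3-L and 52.0 on PC3-H, and 36.9 on the array labelled LNCaP-AI and 31.4 on LNCaP, within 2-fold in both pairs. MSRB3, a methionine sulfoxide reductase gene, was 99.2 on PC3-L and 35.2 on PC3-H, and 75.3 on the array labelled LNCaP-AI and 37.7 on LNCaP. TMBIM4 was 270.3 on PC3-L and 127 on PC3-H, and HELB was 68.0 on PC3-L and 32.6 on PC3-H. These 3 neighbours were past 2-fold higher on PC3-L, where HMGA2 was 1.51-fold higher and 8.59% of all genes were past 2-fold higher. In the LNCaP pair, where HMGA2 was past 2-fold, 0 of the 6 were, near the share of 10.6% over all genes.

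Beside NES lay BCAN, HAPLN2 and GPATCH4, and CRABP2, METTL25B and MRPL24. CRABP2, which carries retinoic acid to its nuclear receptors, shared the pattern of NES. It was 36.3 on PC3-L and 179.9 on PC3-H, and 43.3 on the array labelled LNCaP-AI and 34.9 on LNCaP, 4.85-fold lower on PC3-L than on PC3-H. The other 5 neighbours were within 2-fold in both pairs, where 12.4% (PC3 pair) and 10.6% (LNCaP pair) of all genes were past it.

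Cell types that make SOX9 or nestin in tissue were looked for by their markers. Of 5 endothelial markers with a probe, 5 stayed below 100 on every array (27.0 to 73.4), with summed intensities of 209.5 on PC3-L, 244 on PC3-H, 242 on the array labelled LNCaP-AI and 226 on LNCaP. Of 6 Schwann and perineurial markers 5 stayed below 100, and the exception was ERBB3, which epithelial cells make too. Their sums were 274 on PC3-L, 357 on PC3-H, 316 on the array labelled LNCaP-AI and 444 on LNCaP. All 4 chondrocyte markers (23.1 to 46.5), both fibroblast markers (19.997 to 51.7) and all 3 pericyte and smooth muscle markers (31.9 to 78.4) stayed below 100 on every array. Their summed intensities ran between 121 and 133, 67.3 and 76.1, and 157 and 179.97. Of 3 leukocyte markers only the lysosomal gene CD68 passed 100, at 630.4 on PC3-L and 289.5 on PC3-H, and 553 on the array labelled LNCaP-AI and 102 on LNCaP; the list's sums were 734, 406, 653 and 203 on the same arrays. No marker is listed at 0, since the values have a floor. A level below 100 was common, since 83.6% of all probes on PC3-H lay below 107. The part of any other cell type in the levels of SOX9, HMGA2 and NES was not tested.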

How the data were processed

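Per the labels' protocols, total RNA was extracted with ISOGEN II and biotinylated with the GeneChip WT Terminal Labeling Kit. The deposited table holds intensity values on a linear scale, as their range shows (17.6 to 11188); summarisation, background correction and normalisation are not given in the sources used here. The series' design text names GeneSpring GX 12.6 and thresholds of a 10% false discovery rate and 2-fold; the first was not applied with 1 array per group.

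Of 37934 probes, 14952 had 1 gene symbol, 0 several and 22982 none; all 14952 matched RefSeq (GRCh38.p14) by Entrez identifier, giving 14006 genes, and for 583 genes with over 1 probe the one with the highest mean was used. Values were analysed as log2(intensity + 1). A gene passed the filter in a comparison where the higher of its 2 values reached the 40th percentile of its array. Arrays were grouped by title. No test was made: each comparison has 1 array a side, and the 2 arrays labelled low for the glycan were not tested against the 2 labelled high, since the genes were chosen with these values known and 1 of the arrays did not match its line. Array number limits the precision. The script was tested on simulated data. Python 3.11.15, numpy 2.4.6 and pandas 2.3.3 were used.

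The members and the gene lists were chosen with earlier results of these data known. Named were the members, the 5 nearest profiles and 3 neighbours a side of each, and up to 4 genes per list and pair with the largest differences; other genes of the text were named after their values were seen. Alternatives were other pseudocounts (0 and 16), median centring, quantile normalisation, subtraction of the 1st percentile, the mean over probes, other filters and the opposite PC3 assignment.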

Additional observations from a re-analysis of the deposited data

Results flagged for a closer look

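The difference between low and high glycan label had opposite signs in the 2 lines, past 2-fold in both, for ETV4 among the listed genes. ETV4, the ETS factor induced by FGF and ERK signalling, had a log2 difference of −1.11 for PC3-L minus PC3-H and 2.26 for the array labelled LNCaP-AI minus LNCaP. NES had −1.32 and 0.021 in the same pairs. The second value of NES is 1.01-fold, a size that 94.9% of genes reached or passed, and with PC3-L in place of the array labelled LNCaP-AI it was −0.087, so its sign carries no direction and NES was past 2-fold in the PC3 pair without an opposite difference in the other. With 1 array per group the difference between the pairs was not tested, and the LNCaP-AI array of the second pair did not match the markers of its line.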

How the results depend on the processing

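Of 66 values of the 3 genes under alternatives, 58 kept their side of 2-fold and moved by less than 1.5 times. The mean over probes is left out for the 3 genes, since each has 1 probe. Of 64 counts of genes past 2-fold, 56 stayed within 1.5 times. Among these 56, the 8 made with no filter could not differ from those reported. No value lay below 17.6, so any gene past 2-fold reached the 40th percentile in any case. Subtracting each array's 1st percentile moved the HMGA2 log2 difference to 2.40 for the array labelled LNCaP-AI minus LNCaP and to −2.71 for LNCaP minus PC3-H, and the NES difference to −1.96 for PC3-L minus PC3-H. It also raised the counts of genes past 2-fold to 1621 higher and 902 lower (PC3-L minus PC3-H), 1014 and 1028 (the array labelled LNCaP-AI minus LNCaP), 235 and 519 (that array minus PC3-L) and 1196 and 959 (LNCaP minus PC3-H), against 955 and 419, 607 and 571, 91 and 214, and 609 and 501 as reported. Subtracting a background widens folds of dim genes by its construction. The PC3 assignment of the free-text descriptions turns the sign by construction, to −0.76 for SOX9, −0.59 for HMGA2 and 1.32 for NES. PC3-L in place of the array labelled LNCaP-AI, an alternative added after the data were seen, gave 1.97 for SOX9 and 2.51 for HMGA2 against LNCaP; the cause was not tested. No paired analysis was possible because each comparison sets 1 array against 1 array, a single pair with no residual spread. A comparison of low with high glycan label over both lines was not made. Signal over background limits HMGA2 on LNCaP and NES on the 3 arrays other than PC3-H.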
